A study of Mus musculus with 6 samples.

Results

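The neutrophil granule genes described here are 10 genes given by name, Mpo, Elane, Prtn3, Ltf, Camp, Ngp, Lcn2, S100a8, S100a9 and Retnlg, of 24062 gene symbols counted in the auditory nerve. All 10 were found in the table and all 10 passed the filter on low counts that left 16722 genes for testing. RNA was sequenced from auditory nerves dissected from the cochleae of young adult mice, 3 wildtype and 3 Vcan knockout, both groups labelled as strain C57BL/6 (C57BL/6J in the submitters' design text). Each library held RNA from both cochleae of 1 mouse. How Vcan, the versican gene, was altered, and in which cells, is not stated in the labels. Vcan had 626 to 864 counts in the wildtype and 248 to 413 in the knockout libraries. Its log2 fold change was −1.2 (SE 0.32), and it was not called by the edgeR test used below (adjusted p = 0.558). The libraries held 74530860 to 92513887 counts, and the neuron gene Snap25 was abundant, at 1534 to 3502 CPM (counts scaled to a common library size, per 1e6).

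Neutrophils are short-lived white blood cells that develop in bone marrow and fill their granules in a fixed order. The azurophil granules form first, in promyelocytes, and hold myeloperoxidase and serine proteases; the specific granules form next and hold lactoferrin, cathelicidin and related antimicrobial proteins; other genes come on as the cell matures. Most granule transcripts are made in marrow precursors and decline before the cell enters blood, and the cochlea lies in bone whose spaces can hold marrow. Lactoferrin and lipocalin 2 are also made by secretory epithelia, such as those lining the airways and the middle ear.

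Several of the genes are neighbours in the genome (RefSeq annotation of GRCm38, the build of the mm10 reference). Prtn3 (chr10:79879667-79883174) and Elane (chr10:79886312-79888216) lie 3.14 kb apart, and S100a8 (chr3:90669071-90670034) and S100a9 (chr3:90692630-90695721) 22.6 kb apart. Camp (chr9:109847377-109849456), Ngp (chr9:110419808-110423012) and Ltf (chr9:111019292-111042766) follow each other on chromosome 9, at gaps of 570.4 and 596.3 kb. Mpo is at chr11:87793784-87804412, Lcn2 at chr2:32384637-32387739 and Retnlg at chr16:48872608-48874498. RefSeq promoters of all 10 were searched, on both strands over the 250 bases before the start of the gene, for motifs of factors that drive granulocyte genes. The letters GAGGAAG, bound by PU.1, occurred in 5 of the 10, all 3 azurophil genes (Mpo, Elane and Prtn3) with Lcn2 and S100a8, against 10.6% of all promoters. TTNNGNAA, a C/EBP core, occurred in 6 of the 10 (Ltf, Ngp, Lcn2, S100a8, S100a9 and Retnlg) and in none of the azurophil genes, against 36.8% of all promoters. Lcn2 and S100a8 thus had both motifs, and Camp had neither. An NF-kB motif occurred in none of the 10 (3.9% of all promoters) and TATAAA in S100a8 alone (12.4% of all promoters). A match is a description of the letters and does not show that a factor binds. The 4 promoters below stand for the azurophil genes (Elane), for a specific granule gene that followed them over the libraries (Ngp), for one that did not (Ltf), and for the 1 gene that was lower relative to the rest in knockout nerve (Retnlg). They are written 5′ to 3′ in the direction of the gene, with capitals marking the PU.1 letters in Elane, at −85 from the start, and the C/EBP core in the other genes, at −217 and −75 in Ltf, −138, −102 and −11 in Ngp and −246 in Retnlg.
Elane (chr10:79886062-79886311, plus strand): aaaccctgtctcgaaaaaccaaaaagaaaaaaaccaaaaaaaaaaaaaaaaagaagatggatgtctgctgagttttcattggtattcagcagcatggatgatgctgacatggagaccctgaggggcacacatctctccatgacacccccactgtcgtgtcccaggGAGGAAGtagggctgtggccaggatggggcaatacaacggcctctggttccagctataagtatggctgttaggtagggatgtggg
Ngp (chr9:110419558-110419807, plus strand): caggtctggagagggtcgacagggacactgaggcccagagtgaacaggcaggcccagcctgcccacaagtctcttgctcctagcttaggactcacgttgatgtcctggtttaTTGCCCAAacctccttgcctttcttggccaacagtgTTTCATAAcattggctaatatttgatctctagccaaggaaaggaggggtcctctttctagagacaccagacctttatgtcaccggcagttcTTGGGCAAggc
Ltf (chr9:111019042-111019291, plus strand): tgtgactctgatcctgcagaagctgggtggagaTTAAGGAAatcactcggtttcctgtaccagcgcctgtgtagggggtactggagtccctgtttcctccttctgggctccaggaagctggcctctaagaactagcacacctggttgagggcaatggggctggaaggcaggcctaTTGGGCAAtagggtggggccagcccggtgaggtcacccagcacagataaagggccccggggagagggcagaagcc
Retnlg (chr16:48872358-48872607, plus strand): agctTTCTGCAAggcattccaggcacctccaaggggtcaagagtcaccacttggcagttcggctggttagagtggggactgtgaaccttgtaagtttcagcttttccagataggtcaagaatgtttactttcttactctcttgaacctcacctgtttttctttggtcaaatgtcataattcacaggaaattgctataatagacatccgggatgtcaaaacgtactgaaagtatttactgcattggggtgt

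Transcripts of all 10 genes were counted in every library. In knockout replicate 1 alone they ran from 0.0264 CPM (Elane) to 121 CPM (Ltf). The highest library of a gene exceeded its lowest by 6.75 times (Prtn3) to 84.2 times (Elane). The fitted level was higher in knockout nerve for 9 of the 10 genes and lower for 1. The median of the 10 log2 fold changes was 1.09, against −0.01 over all genes tested. None passed the test (quasi-likelihood test of edgeR, adjusted by Benjamini-Hochberg, threshold 0.05), at which 0.138% of all genes were called, and none passed in DESeq2, which called 1.36%. At an unadjusted p under 0.05 there was 1 of the 10, Ltf, which was higher in knockout nerve, against 5.2% of all genes in either direction and 2.56% higher. The wildtype and knockout libraries overlapped for all 10, while 10.3% of all genes tested had groups that did not overlap. In bulk RNA, fewer cells of a type and less RNA per cell cannot be told apart.

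**Figure D1:**
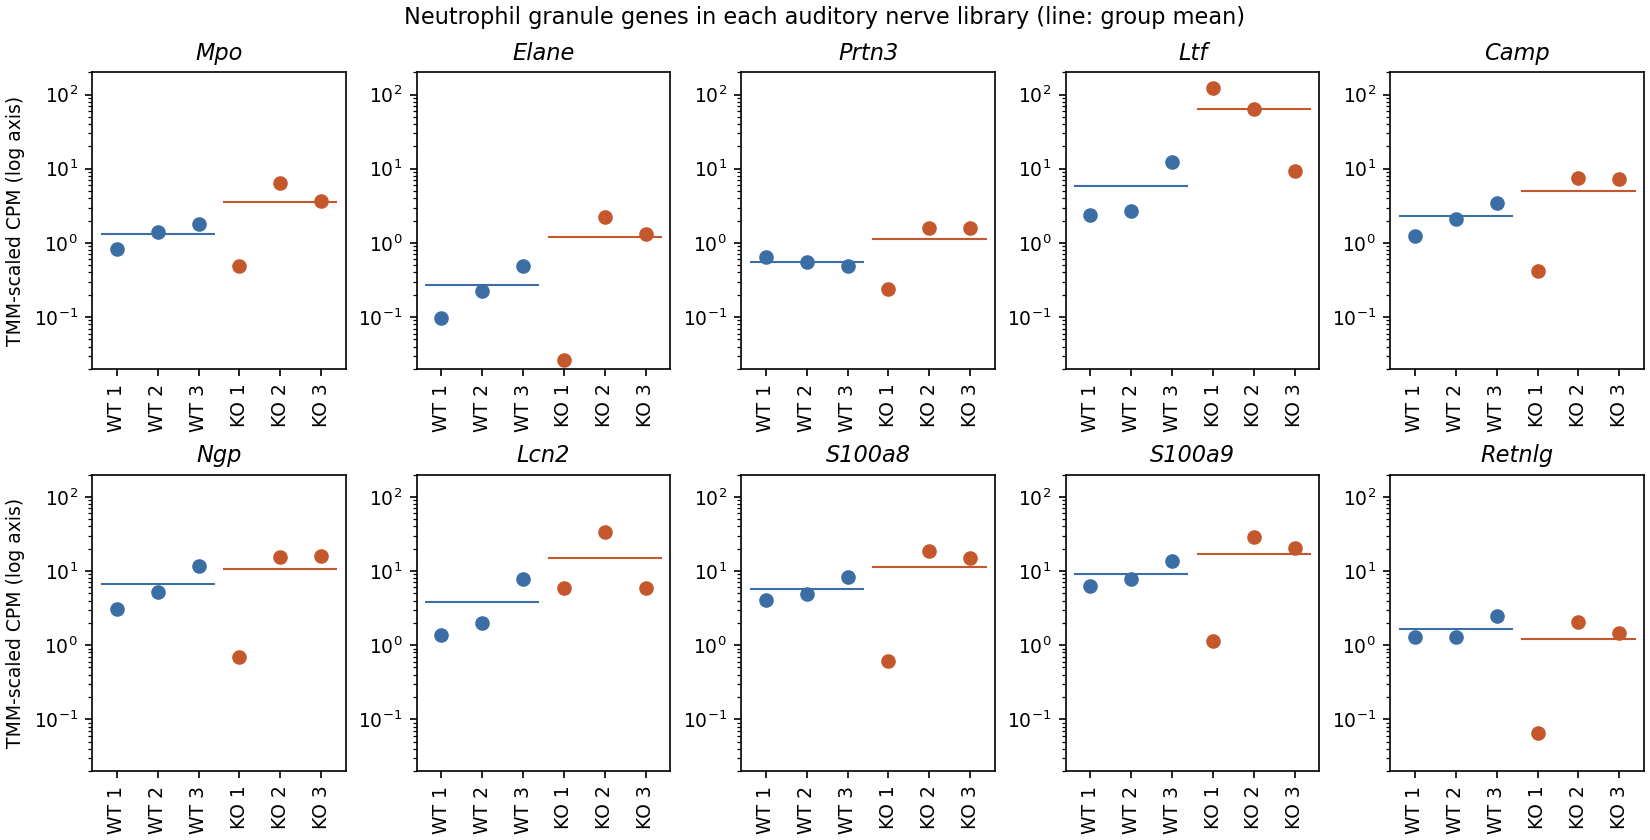
TMM-scaled CPM (log axis) of the 10 genes in the 3 wildtype (WT, blue) and 3 knockout (KO, orange) libraries, with lines at group means. Knockout replicate 1 is the lowest of the 6 libraries for 8 of the genes, and is the highest for Ltf.

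The azurophil genes, made at the earliest stage, had the lowest levels per length in both groups. Mpo, the myeloperoxidase that makes hypochlorous acid from hydrogen peroxide, was at 0.840, 1.39 and 1.78 CPM in wildtype replicates 1, 2 and 3 and at 0.488, 6.50 and 3.71 CPM in knockout replicates 1, 2 and 3. Knockout replicates 2 and 3 thus lay above every wildtype library and knockout replicate 1 below them all, so the groups overlapped. The log2 fold change of Mpo was 1.42 (SE 0.82; edgeR adjusted p = 0.9996, unadjusted p = 0.131), from 1.34 ± 0.471 to 3.57 ± 3.01 CPM (SD, n = 3), and was 0.64 without knockout replicate 2. Elane, neutrophil elastase, had 8, 20 and 42 counts in the wildtype libraries and 2, 205 and 114 in the knockout libraries. Its pattern was that of Mpo with a wider range: knockout replicate 2 exceeded knockout replicate 1 by 84.2 times (95% exact interval 23.0 to 700.3, for counting error only), against 13.3 times (9.56 to 19.1) for Mpo. The log2 fold change of Elane was 2.14 (SE 1.25; edgeR adjusted p = 0.9996), and 1.31 without knockout replicate 2.

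Prtn3, proteinase 3, a close relative of elastase, had 53, 49 and 42 counts in wildtype and 18, 145 and 138 in knockout nerve. The knockout libraries repeated the order seen for Mpo and Elane within the counting error of replicates 2 and 3, while in wildtype nerve replicate 3 was the lowest for Prtn3 and the highest for Mpo and Elane. Its log2 fold change was 1.03 (SE 0.68; edgeR adjusted p = 0.9996), and 0.68 without knockout replicate 3. In the GENCODE vM21 annotation a Prtn3 exon overlaps one of Plppr3 on the opposite strand, and Mpo exons overlap Gm11505 on the opposite strand. Whether counting used strand is not given in the sources used here, so part of the counts of Prtn3 and Mpo could come from those genes.

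Of the specific granule genes, Camp and Ngp followed the azurophil genes. Camp, the precursor of the antimicrobial peptide cathelicidin, was at 1.22, 2.09 and 3.50 CPM in wildtype replicates 1 to 3 and at 0.422, 7.46 and 7.30 CPM in knockout replicates 1 to 3. Ngp, neutrophilic granule protein, which has a cathelin-like fold, was at 3.11, 5.29 and 11.7 CPM in wildtype and at 0.685, 15.5 and 15.8 CPM in knockout nerve. In both genes knockout replicate 1 was the lowest library and knockout replicates 2 and 3 were the highest. The log2 fold change was 1.16 (SE 0.93) for Camp and 0.67 (SE 1.01) for Ngp (edgeR adjusted p = 0.9996 for both). Without knockout replicate 2 these values were 0.75 and 0.29, and without knockout replicate 3 they were 0.78 and 0.26.

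Ltf and Lcn2, the other specific granule genes, did not follow that order. Ltf, lactoferrin, an iron-binding protein, was at 2.36, 2.73 and 12.5 CPM in wildtype replicates 1 to 3 and at 121, 63.2 and 9.26 CPM in knockout replicates 1 to 3. The library with the fewest transcripts of Mpo, Elane, Camp and Ngp thus had the most of Ltf, 9188 counts, or 51.2 times the level in wildtype replicate 1 (95% exact interval 44.5 to 59.3, for counting error only). Knockout replicate 3 lay below wildtype replicate 3, so the groups overlapped. The log2 fold change of Ltf was 3.46 (SE 1.06), the largest of the 10 in the fit of all 6 libraries, with an unadjusted p of 0.0148 and an adjusted p of 0.666 (edgeR; adjusted p = 0.0942 in DESeq2). Without knockout replicate 1 it was 2.63 and that of Elane 2.71, so Ltf was then not the largest. Lcn2, lipocalin 2, which binds bacterial iron carriers, was at 1.39, 2.00 and 7.90 CPM in wildtype and at 5.94, 33.6 and 5.81 CPM in knockout nerve. Knockout replicate 2 stood apart from the other 5 libraries for Lcn2, and knockout replicate 1 was not low. Its log2 fold change of 2.01 (SE 0.95; edgeR adjusted p = 0.9996) was 0.64 without knockout replicate 2. In the authors' deposited table no p-value is given for Lcn2.

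S100a8 and S100a9, which pair to form calprotectin, a calcium- and zinc-binding complex of the neutrophil cytosol, had the highest levels per length in wildtype nerve. S100a8 was at 4.06, 4.86 and 8.26 CPM in wildtype and at 0.619, 18.4 and 14.7 CPM in knockout nerve. S100a9 was at 6.28, 7.70 and 13.8 CPM in wildtype and at 1.15, 29.0 and 20.2 CPM in knockout nerve. The order of the libraries was the same for both genes as for Mpo, Elane and Camp. The log2 ratio of S100a8 to S100a9 lay between −0.89 and −0.46 in the 6 libraries, although each gene ranged over more than 25 times. The log2 fold change was 0.97 (SE 0.98) for S100a8 and 0.86 (SE 0.95) for S100a9 (edgeR adjusted p = 0.9996 for both). Without knockout replicate 2 these values were 0.41 and 0.20.

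Retnlg, a resistin-like protein of mature neutrophils, was the only member with a negative fold change. It was at 1.27, 1.30 and 2.46 CPM in wildtype replicates 1 to 3 and at 0.0659, 2.06 and 1.46 CPM in knockout replicates 1 to 3. Knockout replicate 1, with 5 counts, was again the lowest library, but the highest was wildtype replicate 3. The log2 fold change was −0.48 (SE 0.96; edgeR adjusted p = 0.9996) and turned to 0.07 without knockout replicate 1.

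**Figure D2:**
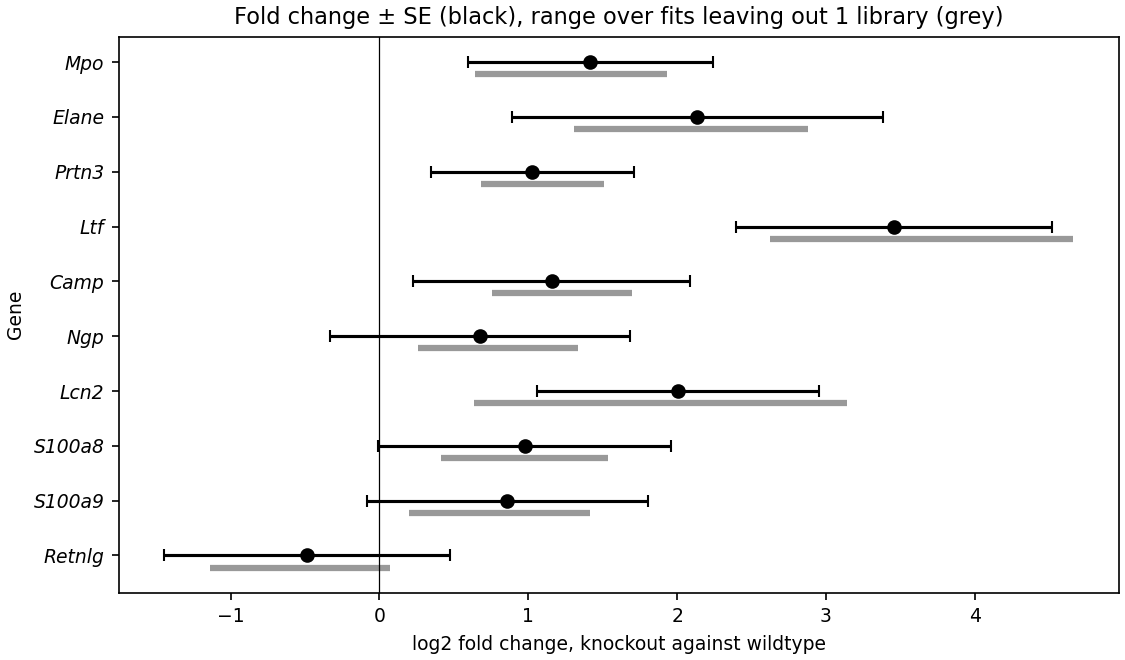
log2 fold change of knockout against wildtype for each gene (points, bars are the SE of the edgeR fit) with the range over fits that leave out 1 of the 6 libraries (grey). In the fit of all 6 libraries Ltf has the highest value, 3.46, and Retnlg, at −0.48, is the only one below 0.

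Across the 10 genes, knockout replicate 1 was the lowest library in 8, all but Ltf and Lcn2, whereas it was the lowest for 20.4% of all genes tested. In 7 of the 10, these 8 without Retnlg, knockout replicate 1 was lowest and another knockout library highest, against 8.98% of all genes tested. Of the 3405 genes tested that were lowest in knockout replicate 1, 1501 had another knockout library highest. Without knockout replicate 1 the median log2 fold change of the 10 genes was 1.62, and without knockout replicate 2 it was 0.64. None was called in either case. Per kilobase of exon, the wildtype levels in CPM per kb ran from S100a9 (17.7 ± 7.62) through S100a8 (8.25 ± 3.21), Ngp (5.48 ± 3.65), Camp (3.00 ± 1.51), Retnlg (2.83 ± 1.14), Ltf (1.70 ± 1.67) and Lcn2 (1.435 ± 1.37) to Mpo (0.390 ± 0.138), Prtn3 (0.322 ± 0.0422) and Elane (0.274 ± 0.205; SD, n = 3). The SD ranges of neighbours in this order overlapped. In knockout nerve Ltf stood at 18.7 ± 16.2 CPM per kb, between S100a9 (32.15 ± 27.3) and S100a8 (16.2 ± 13.5).

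The early granule genes were then set against the late ones. In each library the mean log2 CPM of Ltf, Camp, Ngp and Lcn2 was subtracted from that of Mpo and Elane. The resulting log2 ratio was −2.73, −2.32 and −3.09 in wildtype replicates 1 to 3 and −5.07, −2.55 and −2.002 in knockout replicates 1 to 3. The groups overlapped (−2.72 ± 0.384 in wildtype and −3.21 ± 1.63 in knockout nerve; SD, n = 3), with knockout replicate 1 apart from the rest. In the edgeR fit, the mean log2 fold change of the early genes minus that of the late genes was −0.05, and between −0.41 and 0.33 when 1 library was left out. Members are not replicates, so this difference carries no p-value.

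The low value of knockout replicate 1 came with its Ltf and Lcn2 levels. With Camp and Ngp alone as the late genes, a choice made after the values were seen, the log2 ratio was −2.78, −2.58 and −2.77 in wildtype and −2.25, −1.50 and −2.28 in knockout nerve. All 3 knockout libraries then lay above all 3 wildtype libraries, with means of −2.71 ± 0.114 and −2.01 ± 0.438 (SD, n = 3), and the difference of fold changes was 0.86. The 2 Elane counts of knockout replicate 1 enter this ratio. Every single pair of Mpo or Elane with Camp or Ngp overlapped between the groups. Mpo over Camp was at −0.54, −0.59 and −0.98 in wildtype and 0.21, −0.20 and −0.98 in knockout nerve (log2). Elane over Ngp was at −5.02, −4.57 and −4.57 in wildtype and −4.70, −2.81 and −3.58 in knockout nerve (log2). No share over all genes was computed for the combined ratio, and its separation was not tested.

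Relative to each of the other 9 granule genes, Retnlg was lower in all 3 knockout libraries than in any wildtype library. The log2 ratio of Mpo to Retnlg was −0.60, 0.10 and −0.47 in wildtype and 2.89, 1.66 and 1.34 in knockout nerve. That of Retnlg to Camp was 0.06, −0.68 and −0.51 in wildtype and −2.68, −1.86 and −2.32 in knockout nerve. Of the 45 pairs of members, 11 had log2 ratios that did not overlap between the groups: all 9 pairs with Retnlg, and 2 of the 36 others (Mpo with S100a9, and Camp with Ngp). For scale, 0.331% of all genes counted in every library had a ratio to Camp, and 0.668% a ratio to Mpo, that did not overlap. The 9 pairs share Retnlg and are a single pattern. Of the same genes 2.21% had a ratio to Retnlg that did not overlap between the groups, and 2.19% did so in the same direction. Whether these genes vary over the libraries as the granule genes do was not tested, so the share may not be a like comparison. The pattern was noticed in these libraries, and has no test of its own.

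**Figure D3:**
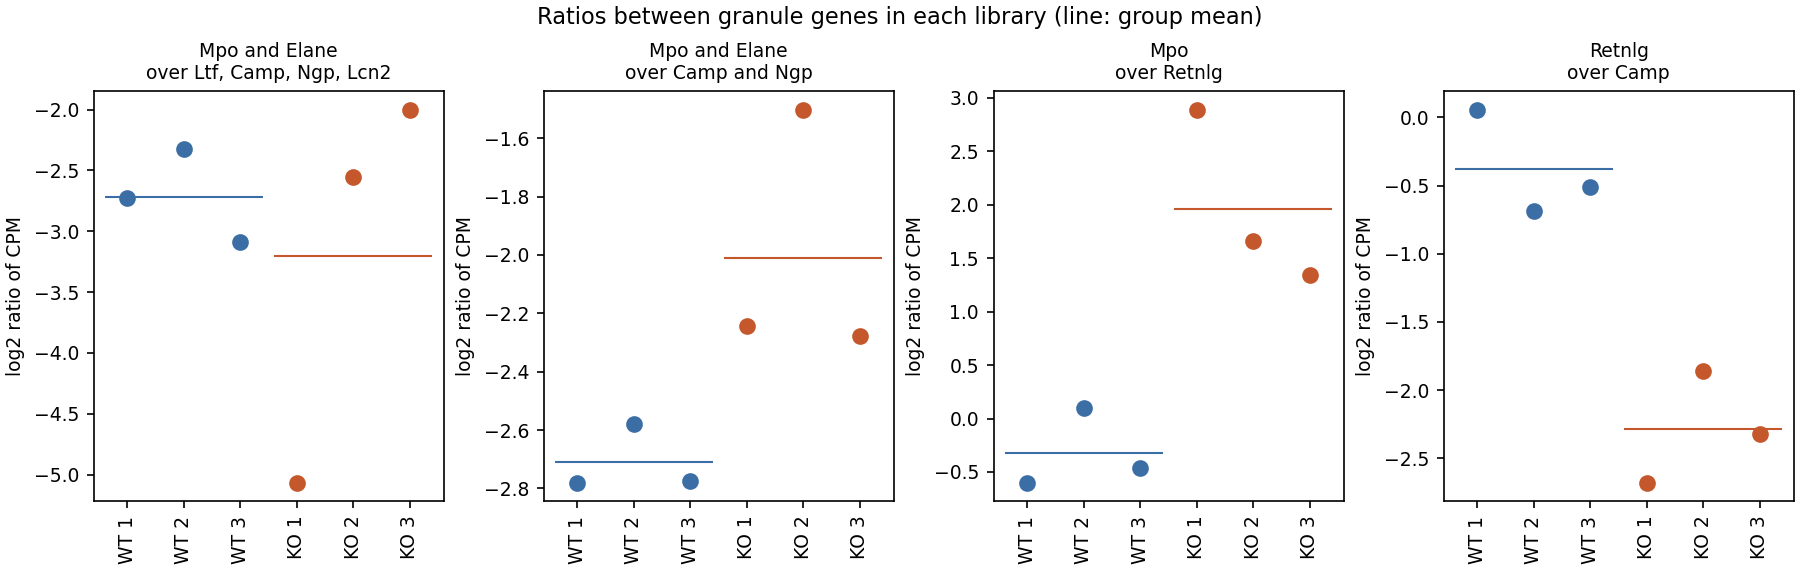
log2 ratios of CPM between granule genes in each library (WT, wildtype, blue; KO, knockout, orange), with lines at group means and a separate scale in each panel. The groups overlap in the leftmost panel and are apart in the 3 others, in which Retnlg is the low member in knockout nerve or Ltf and Lcn2 are left out. The single pairs that make up the ratio of Mpo and Elane to Camp and Ngp each overlap between the groups.

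The levels of Ltf and Lcn2 were set beside those of epithelial genes, which did not all have the same order of libraries. Bpifa1, an airway and middle ear secretory protein, was at 4.24, 2.92 and 306.7 CPM in wildtype replicates 1 to 3 and at 313, 369 and 12 CPM in knockout replicates 1 to 3. The 3 libraries richest in Bpifa1 were the 3 highest for Ltf and for Lcn2, though knockout replicates 1 and 3 were nearly level for Lcn2 (5.94 and 5.81 CPM). Sftpd, a surfactant protein, was at 5.88 and 4.33 CPM in knockout replicates 1 and 2 and at 0 to 0.339 CPM in the other 4 libraries. Pigr, the epithelial immunoglobulin transporter, was at 3.24 and 2.83 CPM in knockout replicates 1 and 2 and at 0 to 0.0351 CPM elsewhere, and Muc4, a membrane mucin, at 5.404 and 3.47 CPM against 0.0890 to 0.971. Of 25 epithelial genes, chosen after values were seen, all were counted in some library and none passed the edgeR test (18 tested, of which 9 had a positive and 9 a negative log2 fold change, median 0.10). Their summed level ranged from 226 to 828 CPM in wildtype and from 284 to 702 CPM in knockout nerve. Krt8, Krt18, Epcam, Cdh1 and Aqp5 were highest in wildtype replicate 3. The secretory genes Bpifb1 (15.3 CPM), Dmbt1 (3.17 CPM), Tff2 and Lyz1 were highest in wildtype replicate 1, the lowest library for Ltf and Lcn2. The part of epithelial RNA in the Ltf and Lcn2 levels was not tested.

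**Figure D4:**
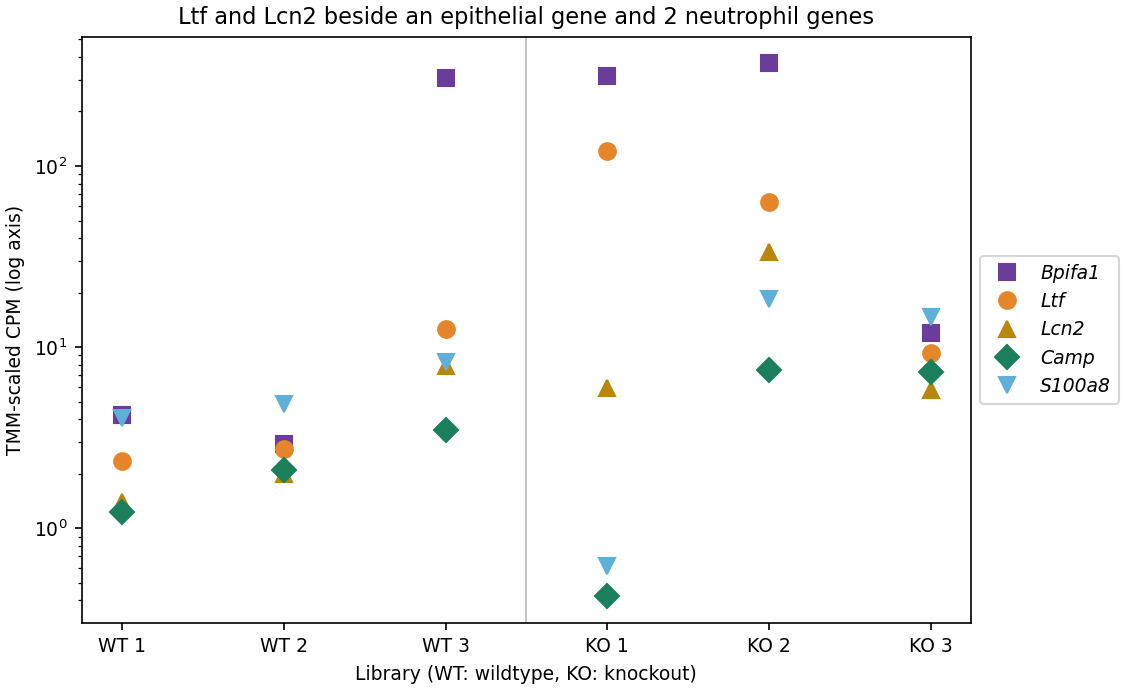
TMM-scaled CPM (log axis) of Ltf, Lcn2, the epithelial gene Bpifa1 and the neutrophil genes Camp and S100a8 in each library (WT, wildtype; KO, knockout). In knockout replicate 1, Bpifa1 (313 CPM) and Ltf (121 CPM) are high while Camp (0.422 CPM) and S100a8 (0.619 CPM) are at their lowest.

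Other genes of the neutrophil lineage were mostly scarce, and none passed over all genes (edgeR). Of 6 further azurophil genes 4 had a positive and 2 a negative log2 fold change (median 0.27). Knockout replicate 1 was the lowest library for 4 of the 6, against 20.4% of all genes tested. Ctsg, the protease cathepsin G, was lowest in knockout replicate 1 (0.0132 CPM) and highest in knockout replicates 2 and 3 (0.379 and 0.267 CPM). Srgn, the proteoglycan core on which granule proteins are packed, was at 107 ± 40.4 and 93.1 ± 32.3 CPM (SD, n = 3) and is also made by other blood and vessel cells. Of 10 further specific granule genes 9 were tested, 5 with a positive and 4 with a negative value (median 0.36). The 4 negative ones were Olfm4 (−0.80), Itgb2l (−0.35), Mmp8 (−0.15) and Cyba (−0.15), and Cyba was the most abundant of the list. Cd177, a neutrophil surface protein, was picked after its values were seen. Its groups did not overlap, which was also so for 10.3% of all genes tested. Cd177 was at 0.492, 0.456 and 1.35 CPM in wildtype and at 2.57, 5.09 and 1.60 CPM in knockout nerve (log2 fold change 2.01, SE 0.62; edgeR adjusted p = 0.661). Chil3, a chitinase-like protein also made by macrophages, was at 0.984, 1.55 and 6.89 CPM in wildtype and at 0.316, 5.44 and 6.36 CPM in knockout nerve.

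Of 19 counted genes of gelatinase granules and mature neutrophils, 13 were tested, 9 with a positive and 4 with a negative log2 fold change (median 0.63), and Stfa1 and Stfa2 had no counts. Knockout replicate 1 was the lowest library for 3 of the 13, against 20.4% of all genes tested. Csf3r, the receptor for granulocyte colony-stimulating factor, was at 3.49 ± 0.843 and 4.48 ± 1.71 CPM, and Mmp9, gelatinase B, at 1.27 ± 0.669 and 2.93 ± 1.43 CPM (SD, n = 3). In knockout replicate 1 Csf3r was at 5.06 CPM, and Mmp9 was at 4.35 CPM, its highest value. The 3 genes lowest in that library were G0s2, Cxcr2 and 1100001G20Rik. G0s2, the most abundant of the list, was at 20.1 CPM there and at 27.2 to 36.8 CPM in the other libraries. Cxcr2 was at 0.0527 CPM and 1100001G20Rik at 0.0264 CPM in knockout replicate 1. Of 8 transcription regulators of granulocyte formation 7 were tested, 6 positive and 1 negative (median 0.18). Gfi1, a repressor needed for neutrophil formation, was at 2.51 ± 1.38 and 2.85 ± 0.5996 CPM (SD, n = 3), and Cebpe, which drives specific granule genes, at 0.0132 to 0.186 CPM, too low for the test. Of 15 chemokine, cytokine and adhesion genes that draw neutrophils into tissue 9 were tested, 6 positive and 3 negative (median 0.12). Cxcl2, a ligand that attracts neutrophils, was at 1.01 CPM in knockout replicate 2 and at 0.0117 to 0.128 CPM in the other libraries. Of 12 receptors and inhibitors of granule proteins 7 were tested, 2 positive and 5 negative (median −0.16). Slpi, a secreted inhibitor of elastase that epithelia also make, was at 1.42 and 0.780 CPM in knockout replicates 1 and 2 and at 0.0720 to 0.290 CPM in the other libraries.

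Other blood cell genes were given as summed levels, and their part in the granule gene levels was not tested. The summed erythroid level was highest in wildtype replicate 3 (48.2 CPM) and next in knockout replicate 1 (24.8 CPM), the library lowest in 8 of the 10 granule genes, against 10.65 to 15.9 CPM in the other 4. Of its 19 counted genes, the globins Hba-a2, Hbb-bs, Hbb-bt, Hbb-b1 and Hbb-b2 were at 0 in all libraries and the remaining globin, Hba-a1, was at no more than 0.0120 CPM, so the globins give no measure of blood. The summed B cell level was 98.4 to 115 CPM in wildtype and 113 to 118 CPM in knockout nerve, most of it Ebf1. The summed levels of monocyte genes were 89.6 to 95.8 and 65.85 to 91.2 CPM, most of it Csf1r, those of macrophage genes 187 to 215.5 and 145 to 182 CPM, and those of T and NK cell genes 2.59 to 3.86 and 3.52 to 4.80 CPM (wildtype and knockout). Of the 8 monocyte genes 4 had a positive log2 fold change (Ly6c2, Plac8, Ccr2 and F13a1) and 4, Csf1r among them, a negative one. Ccr2, a chemokine receptor of inflammatory monocytes, was at 1.15 ± 0.148 and 3.08 ± 0.817 CPM (SD, n = 3; edgeR adjusted p = 0.314). The eosinophil, basophil and mast cell genes summed to 1.78 to 5.95 and 1.32 to 3.997 CPM, with a negative log2 fold change in all 6 tested (median −0.98). Their sum was lowest in knockout replicate 1, which was the lowest library for 3 of the 6, against 20.4% of all genes tested.

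The mean pattern of the 10 members was also compared with 12855 other named genes of at least 2 CPM, with the members themselves left out. That floor also leaves out scarce genes of the lineage such as Ctsg. The 10 most alike were Ssbp3, Stk16, Asb6, Zmynd12, Mfsd11, Ppap2a, Tesc, Fam122a, H2-D1 and Lage3, with Pearson r from 0.968 to 0.997 over the 6 libraries. These values describe 6 points and were picked as the highest of many. The 10 genes moved far less than the granule genes, by 1.13 to 1.88 times between the lowest and the highest library.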

How the data were processed

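RNA of 3 wildtype and 3 Vcan knockout auditory nerve samples was measured, grouped by the labels' titles. The mm10 build, HTSeq and DESeq2 are named, without versions, per the submitters' processing notes. The deposited per-gene counts of the authors are whole numbers and were not normalised (74530860 to 92513887 per library). Per the file headers, the authors also deposited a mean of normalised counts (a signal), a log2 fold change with its error, a test statistic (a score) and p-values. Of these only the missing p-value of Lcn2 is used.

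Of 24067 rows, 5 duplicates were joined. In R 4.3.3, edgeR 4.0.16 tested 16722 genes kept by filterByExpr, with TMM scaling (factors 0.964 to 1.02), robust 2-sided quasi-likelihood tests and Benjamini-Hochberg adjustment at 0.05; the SE is the log2 fold change divided by the square root of F. DESeq2 1.42.0 was an alternative. The pipeline was tested on simulated counts. CPM are TMM-scaled. Each library is 1 mouse, so p-values rest on the spread between animals. Intervals cover counting error only, since PCR reads that carry no molecular identifier are not independent molecules. No pair of libraries agreed within sampling noise (chi-square per degree of freedom at least 39.9).

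The 10 members and the gene lists were chosen with earlier results of these data known. Named genes were every member, up to 4 genes of highest mean or past the threshold per list, and the 10 genes most alike in pattern, by log2 CPM with a prior count of 2. Cd177, Olfm4, Itgb2l, Mmp8, Cxcr2, 1100001G20Rik, Gfi1, Cebpe, Cxcl2, Slpi, Ly6c2, Plac8, Ccr2 and the epithelial genes were chosen after their values were seen. Promoter sequences are RefSeq's (GRCm38.p6), and all 10 members matched.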

Additional observations from a re-analysis of the deposited data

How the results depend on the processing

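No member was called in any alternative tried, and the smallest adjusted p of any member was 0.0942, for Ltf in DESeq2. The count of genes called over the whole table was 23; it was 252 in DESeq2, 3 with the replicate number as a block and 3 to 14 when a library was left out. Of the member fold changes only that of Retnlg changed sign, from −0.48 to 0.0708 without knockout replicate 1 (range −1.14 to 0.0708 over the fits that left out a library); the cause was not tested. The median of the members ran from 0.64 to 1.62 over those fits and the early minus late difference from −0.41 to 0.33. That difference was −0.30 with Prtn3 among the early genes and 0.54 with S100a8, S100a9 and Retnlg among the late ones. It could not be computed with at least 1 CPM in at least 3 libraries, which removed Elane and Prtn3.

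Same-numbered samples did not deviate together in every pair (correlations of deviations 0.43, 0.22 and −0.15). The value 0.43 lay above its range with other numbers (−0.485 to −0.123), and the others did not. With so few samples these values cannot decide whether the numbers pair them. The labels state no pairing, and the column headers of the knockout libraries do not use the same numbers as the wildtype ones. With the replicate block no member was called, the median of the members was 0.64 and the early minus late difference −0.39. With 2 to 205 counts for Elane and 5 to 210 for Retnlg, depth limits the ratios that involve them in knockout replicate 1.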

Other observations

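Megakaryocyte and platelet genes, which share the marrow with neutrophil precursors, had another order of libraries than the granule genes. Of 10 genes 9 were tested and all 9 had a positive log2 fold change in knockout nerve (median 1.66), none past the edgeR threshold and 5 at an unadjusted p under 0.05, against 2.56% of all genes tested that were higher in knockout nerve at that p. Their summed level was 22.3, 24.6 and 18.2 CPM in wildtype replicates 1 to 3 and 57.6, 32.3 and 42.85 CPM in knockout replicates 1 to 3, with no overlap between the groups, as for 10.3% of single genes tested. It was highest in knockout replicate 1, the library lowest in 8 of the 10 granule genes. Ppbp, a platelet chemokine precursor, was at 1.06 ± 0.710 and 11.3 ± 6.57 CPM, and Pf4, platelet factor 4, at 3.34 ± 1.499 and 5.75 ± 0.359 CPM (wildtype and knockout; SD, n = 3).

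Genes of dividing cells summed to 9.55 to 18.2 CPM in wildtype and 11.1 to 20.55 CPM in knockout nerve, and no single library was the highest for most of them. Mki67, a marker of dividing cells, made up much of the highest sum, at 7.82 CPM in knockout replicate 1. Osteoclast genes summed to 17.3 to 27.8 CPM in wildtype and 22.2 to 25.95 CPM in knockout nerve, and osteoblast and osteocyte genes to 222 to 397 and 323 to 366 CPM.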
